A study of Mus musculus with 2 samples.

Results

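The expression of 44 genes of mitosis and chromosome segregation was read in single CD8+ tumor-infiltrating lymphocytes (TIL) of lean and obese mice. The genes were chosen by name, each for a part it plays in cell division, and all 44 were found among the 32285 gene rows of the deposited tables. Single-cell libraries made with a 3' droplet kit gave counts of unique molecular identifiers (UMIs), each of which marks a captured RNA molecule. The data hold 2 libraries of CD8+ TIL from B16 F0 tumors, a mouse melanoma line transplanted into male C57Bl/6J mice aged 16 weeks. Mice of the lean library were fed normal chow (NC) and those of the obese library a western diet (WD), and all of them carried the tumor. The number of mice behind each library was not given in the sources used here, so a difference between diets and one between libraries, mice or sorts cannot be told apart. Cells are not replicates, so no test was run, and intervals below are 95% intervals that cover counting error only. The bounds given with a median are the mean bounds of the genes at the middle, not an interval of the median itself.

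A dividing T cell copies its DNA, condenses and pairs the copies, attaches them to a spindle of microtubules and then splits. Cyclin-dependent kinase 1 with its cyclins starts the process, and the kinetochore joins chromosomes to microtubules under control of the chromosomal passenger complex. The spindle checkpoint holds back the anaphase-promoting complex until every chromosome is attached. Most of these genes are silent in resting lymphocytes and are switched on together late in the cell cycle, so their RNA is read as a mark of cycling cells. Whether and where a cell divided was not measured.

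Many promoters of such genes hold a cell cycle genes homology region (CHR), TTTGAA, a short distance after a CCAAT box. In the RefSeq promoter table of GRCm38.p6, which gives 300 bases per start site (250 before and 50 after), 37 of the 44 genes had a window. The genes with no window there were Ccna2, Tpx2, Incenp, Aurkb, Kif20a, Stmn1 and Smc4. TTTGAA was present on either strand in 30 of the 37 genes (81.1%), against 20.2% of the 27025 genes of the table. CCAAT was present on either strand in 31 of 37 (83.8%), against 41.1% of all genes, and both motifs in 27 of 37 (73.0%), against 7.97%. The CHR variant TTTAAA was present in 9 of 37 (24.3%), against 14.9% of all genes. Matches were counted on both strands and were allowed to share bases with a match of another motif. In 9 genes a CHR lay within 100 bases before the start with a CCAAT box upstream of it, and the first bases of both were 10 to 37 bases apart (median 32).

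The last 100 bases before the start site of 6 of these genes are shown because the same pair of motifs sits at a like distance in a kinase, an activator of the anaphase-promoting complex, its ubiquitin-conjugating enzyme, a topoisomerase, a motor and a kinase subunit. They are written 5′ to 3′ on the gene's strand in lower case, and capitals mark each CCAAT or TTTGAA in either orientation (ATTGG and TTCAAA are the reverse complements). Cdk1 is from chr10:69352913-69353012 on the minus strand, Cdc20 from chr4:118437344-118437443 (minus), Ube2c from chr2:164769829-164769928 (plus), Top2a from chr11:99024190-99024289 (minus), Kif11 from chr19:37376282-37376381 (plus) and Cks1b from chr3:89418292-89418391 (minus).
Cdk1: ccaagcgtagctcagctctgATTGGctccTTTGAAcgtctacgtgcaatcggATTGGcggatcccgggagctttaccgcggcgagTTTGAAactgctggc
Cdc20: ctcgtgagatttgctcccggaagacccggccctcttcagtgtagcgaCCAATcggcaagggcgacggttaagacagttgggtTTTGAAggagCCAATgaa
Ube2c: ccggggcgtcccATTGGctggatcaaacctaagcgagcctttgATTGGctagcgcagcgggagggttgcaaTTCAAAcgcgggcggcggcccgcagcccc
Top2a: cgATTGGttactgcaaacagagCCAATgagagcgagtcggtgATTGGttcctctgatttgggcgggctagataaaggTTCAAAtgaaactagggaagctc
Kif11: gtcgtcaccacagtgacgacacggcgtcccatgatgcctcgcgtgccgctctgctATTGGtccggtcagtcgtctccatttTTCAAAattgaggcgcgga
Cks1b: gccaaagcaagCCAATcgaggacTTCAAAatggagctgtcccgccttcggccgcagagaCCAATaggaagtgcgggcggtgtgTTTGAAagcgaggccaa
From the CHR nearest the start, the first base of the partner CCAAT box lay 33 bases upstream in Cdk1, 35 in Cdc20, 28 in Ube2c, 35 in Top2a, 26 in Kif11 and 24 in Cks1b. These matches describe the letters of the window and not bound sites.

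Cells entered the analysis if their UMI total lay between 500 and 50000 and less than 7.5% of it was mitochondrial, which left 2456 of 2697 lean cells (27815785 UMIs) and 2289 of 2623 obese cells (28705830 UMIs). The libraries shared 4 cell barcodes before this step and 2 after it, none of them in a mitotic cell. Doublets were not scored here and none were removed. The 7 T cell markers (Cd3d, Cd3e, Cd3g, Cd8a, Cd8b1, Trac and Lck) were all present, and all 299 lean and 353 obese cells that are called mitotic below held at least 3 UMIs of them. All but Cd8a and Cd8b1 are shared with other T cells, so this sum does not tell CD8 cells apart. Cd4 or Foxp3 was seen in 7 lean and 10 obese mitotic cells, with at least 3 UMIs in 3 and 4. Any of Ncr1, Trdc and Tcrg-C1 was seen in 5 and 11, with at least 3 UMIs in 0 and 1. Over the mitotic cells, 5 melanoma markers summed to 6 UMIs in the lean and 2 UMIs in the obese library, and the melanoma marker Tyr was at 0.

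Kept cells were divided in 3. Cells in which the noncoding RNA Gm26917 took at least 0.3% of UMIs were set apart first (Gm26917 cells, 217 lean and 135 obese). Of the others, cells with at least 10 UMIs of Top2a, Mki67 and Birc5 together were called mitotic cells, and the rest remaining cells (1940 lean and 1801 obese). The name stands for this limit on 3 of the 44 genes and not for a phase, since the genes of DNA replication were also high in these cells. A list of 15 S-phase genes summed to 2657 CPM (counts per 1000000 UMIs) in lean and 2932 CPM in obese mitotic cells, against 833 and 945 CPM in remaining cells. The limit cut a range without a gap. Cells with 8 or 9 UMIs of the 3 genes numbered 24 lean and 37 obese, and those with 10 or 11 UMIs 19 and 19.

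Mitotic cells made up 12.2% of the lean cells (Clopper-Pearson interval 10.9 to 13.5) and 15.4% of the obese cells (14.0 to 17.0), a difference of 3.25 percentage points. With each cell thinned to 5000 UMIs and a limit of 3 UMIs, the shares were 15.1% (13.5 to 16.8) and 17.3% (15.7 to 19.1), and 563 lean and 410 obese cells were too shallow to enter. The mitotic cells were deep, with medians of 26577 and 26402 UMIs against 7756.5 and 8436 in remaining cells, and they held 29.3% of all kept lean UMIs and 33.6% of the obese.

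The share of a gene's UMIs that lay in mitotic cells differed widely between members. Of the 44 genes, Nusap1, which binds spindle microtubules near the chromosomes, had the highest share of its UMIs there, 94.3% in the lean and 94.8% in the obese library. The polo-like kinase Plk1 had 93.0% and 91.5%, and Hmmr, a spindle-associated protein, with 91.5% and 94.2%. Birc5 (survivin), which helped to set the class, was at 92.8% and 92.2%. At the other end stood Smc4, an ATPase subunit of condensin, with 47.7% and 53.8%, below every other member in both libraries. Racgap1, a GTPase-activating protein of the central spindle, had 61.3% and 66.9%, the kinase subunit Cks2 63.2% and 62.8%, the passenger complex scaffold Incenp 63.4% and 70.9%, and the kinesin Kif20b 63.2% and 74.2%. These shares also follow the depth of the cells, so the same genes were compared at equal depth.

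With each cell thinned to 2000 UMIs, a mitotic cell showed a median of 10 of the 44 genes in either library. These 44 include the class genes, so the class limit sets part of that count. Remaining cells with at least 10 UMIs of the S-phase list (S-phase-high) showed a median of 1 gene in lean and 2 in obese, and those with fewer (S-phase-low) showed 1 and 1. Free RNA in the droplets can give such single UMIs, and its part in them was not tested. Without thinning, the median mitotic cell showed 35 genes in lean and 34 in obese, and the median S-phase-low cell 2 and 2. Too shallow to enter were 50 lean and 80 obese S-phase-low cells.

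Stmn1, whose protein stathmin takes microtubules apart, was seen in the most mitotic cells at that depth, 83.3% in lean and 85.3% in obese. It was also seen in 33.9% (29.0 to 39.1) and 37.8% (32.8 to 42.9) of the S-phase-high cells, while S-phase-low cells were at 4.68% (3.68 to 5.86) and 4.91% (3.82 to 6.20). Stmn1 was thus seen more often in S-phase-high than in S-phase-low cells in both libraries, beyond the counting intervals.

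Smc4 went another way. It was seen in 46.8% and 52.4% of mitotic cells, in 21.1% (16.9 to 25.7) and 22.6% (18.5 to 27.2) of S-phase-high cells, and in 25.3% (23.1 to 27.5) and 26.7% (24.3 to 29.1) of S-phase-low cells, so the last 2 groups did not differ beyond their intervals. Its condensin partners were rarer in S-phase-low cells, with Smc2 at 3.70% and 2.97% and Ncapd2 at 0.84% and 1.49%. Cks2 was at 11.8% and 14.6% of S-phase-low cells against 45.2% and 46.2% of mitotic cells, whereas its paralog Cks1b was at 1.56% and 1.12% against 44.5% and 39.4%. Cenpa was seen in 8.25% and 6.54% of S-phase-low cells and Racgap1 in 5.78% and 6.02%. Apart from Smc4, Cks2, Cenpa and Racgap1, the other 40 genes were seen in at most 4.91% of S-phase-low cells in either library.

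**Figure D1:**
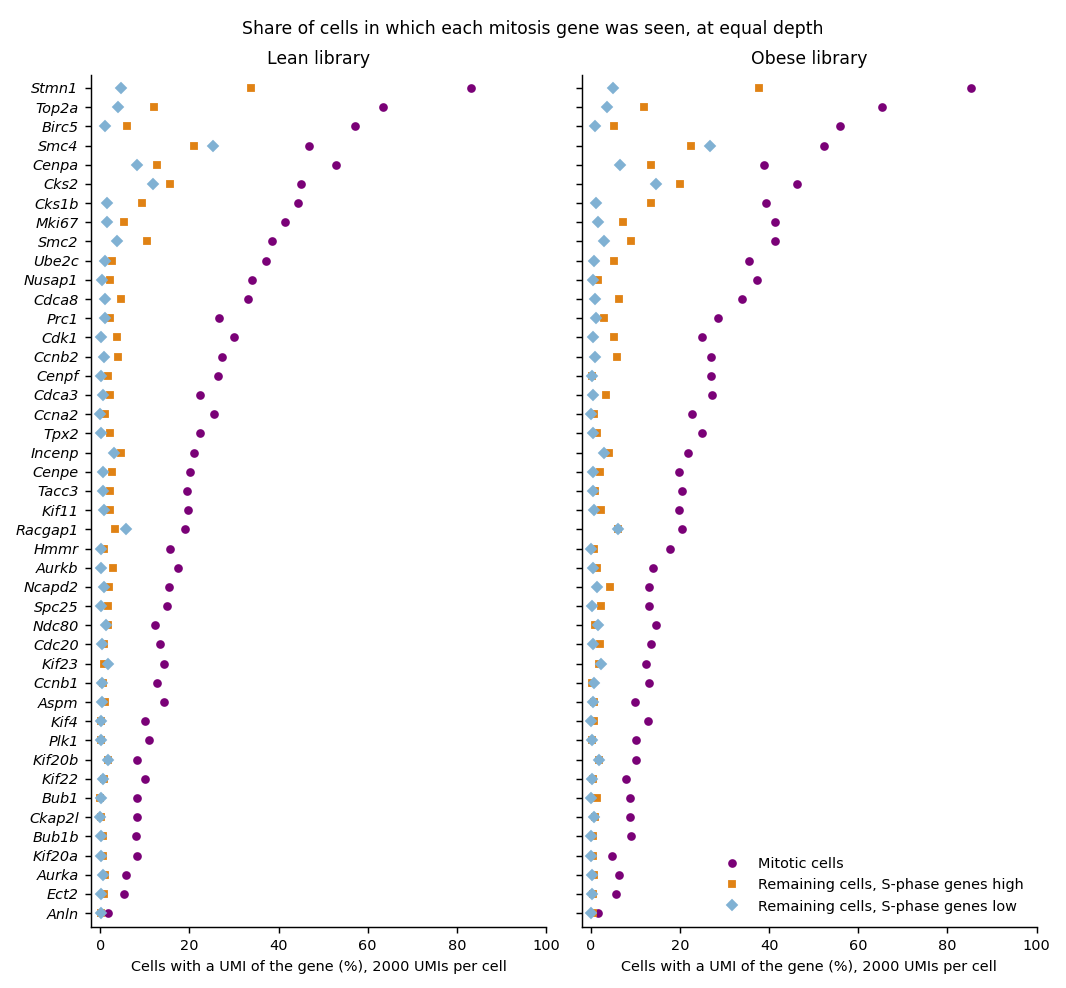
Share of cells (%, horizontal axis) with at least 1 UMI of each of the 44 genes (vertical axis) after every cell was thinned to 2000 UMIs, for the lean library (left) and the obese library (right), with 1 point each for mitotic, S-phase-high and S-phase-low cells. In S-phase-low cells 40 of the genes lie at 4.91% or below, while Smc4 stays at 25.3% and 26.7% and Cks2 at 11.8% and 14.6%.

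Lean and obese libraries were compared by the log2 ratio of CPM, obese over lean. Over all kept cells the 44 genes together summed to 2822 CPM in the lean and 3191 CPM in the obese library, a log2 ratio of 0.18 (0.16 to 0.19). All 44 genes had at least 100 UMIs, and 40 of them were higher in the obese library (57.1% of all genes with that many) and 4 lower. The median log2 ratio of the 44 was 0.21 (0.045 to 0.37, from the bounds of the genes at the middle). The median over all 10283 genes with that many UMIs was 0.036. Of the 44, 11 were at least 1.2-fold higher and 0 were that much lower in the obese library, against 15.1% of all genes tested higher and 9.18% lower. These ratios mix the share of mitotic cells with the level inside them, and in summed counts more such cells and more RNA per cell cannot be told apart.

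Several roles were among the highest ratios. Tpx2, which activates Aurora A on the spindle, was at 44.5 CPM in lean and 55.7 CPM in obese, a log2 ratio of 0.32 (0.21 to 0.43). Kif23, the motor of the central spindle, was at 23.4 and 29.1 CPM (0.32, 0.17 to 0.47), and its partner Racgap1 at 46.9 and 57.6 CPM (0.30, 0.19 to 0.40). Cdca8 (borealin), a subunit of the chromosomal passenger complex, was at 69.6 and 86.2 CPM (0.31, 0.22 to 0.40). Anln, the actin-binding anillin of the cleavage furrow, was at 4.10 and 5.02 CPM on only 114 and 144 UMIs, and its interval of −0.07 to 0.66 included 0.

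Those lower in the obese library were few. Aspm, a spindle pole protein, was at 21.8 CPM in lean and 19.0 CPM in obese (−0.20, −0.37 to −0.03), and Cenpa, the histone H3 variant of centromeres, at 157 and 145 CPM (−0.11, −0.18 to −0.05). The kinase Aurka was at 12.4 and 11.4 CPM (−0.13, −0.35 to 0.10) and the kinetochore subunit Spc25 at 31.0 and 29.1 CPM (−0.09, −0.23 to 0.05), both with intervals that included 0. Kif20b was nearly equal, at 24.2 and 24.6 CPM (0.02, −0.13 to 0.18).

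Inside the mitotic cells under 50000 UMIs both libraries were nearly equal in these genes. The 41 genes that did not set the class summed to 6154 CPM in lean and 6188 CPM in obese, a log2 ratio of 0.01 (−0.01 to 0.03), and their median was 0.02 (−0.16 to 0.19), against 0.03 over the 8133 genes tested. With cells of 50000 UMIs or more added, the median was 0.14. Of the 41, 25 were higher in the obese library and 16 lower, near the share over all genes tested, of which 55.2% were higher. By 1.2-fold, 0 were higher (15.6% of all genes tested) and 4 lower (10.6%). The class genes were at 634 and 671 CPM (Top2a, 0.08), 291 and 324 CPM (Mki67, 0.16) and 488 and 436 CPM (Birc5, −0.16), and since they define the cells these values are a description.

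**Figure D2:**
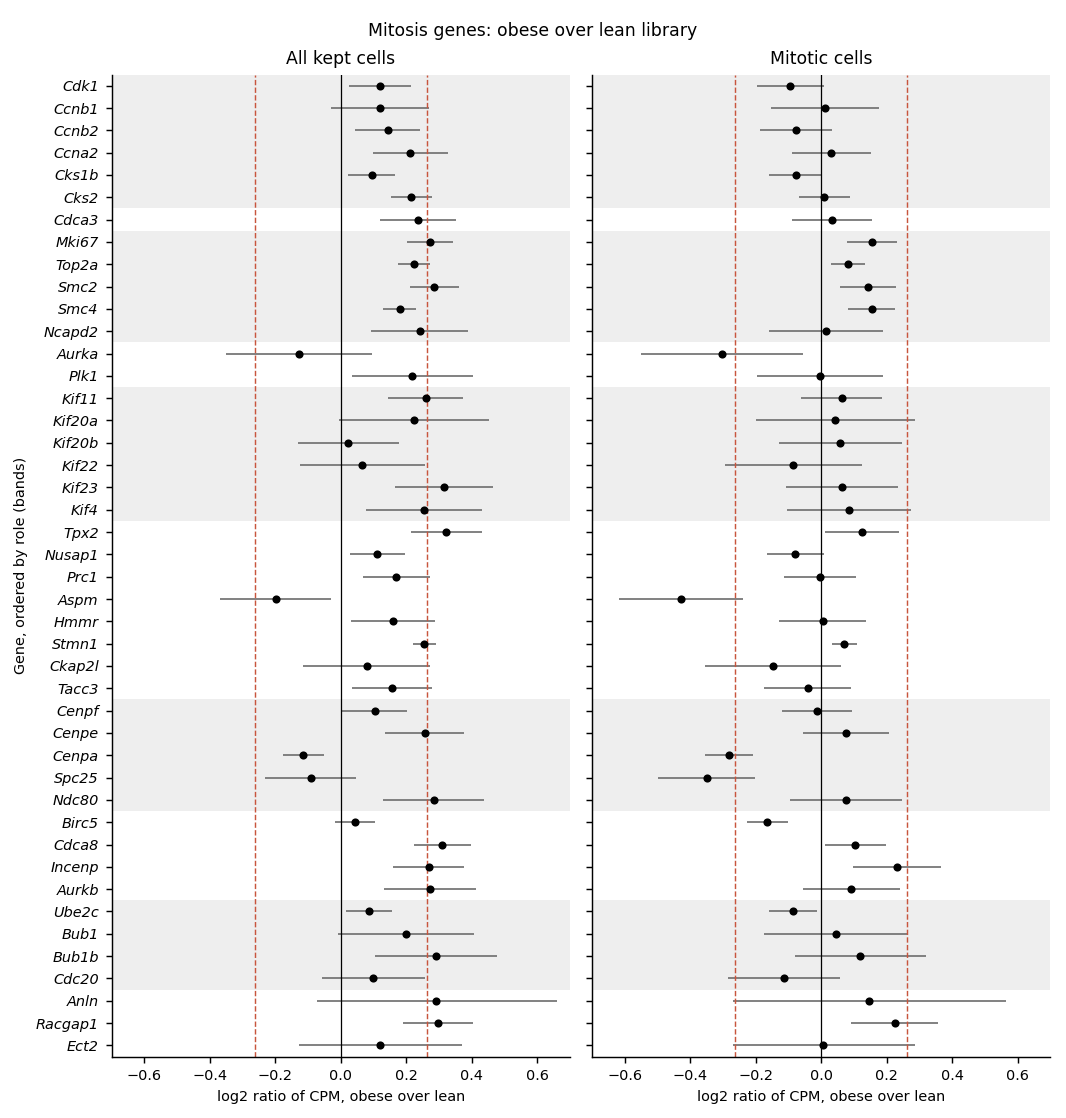
Log2 ratio of CPM, obese over lean library (horizontal axis), of the 44 genes in order of role (bands), over all kept cells (left) and over mitotic cells (right). Bars are 95% counting intervals and dashed lines mark 1.2-fold. On the left 40 of 44 points lie above 0 (57.1% of all genes tested). On the right 27 do, of which 25 are outside the class rule (55.2% of all genes tested). Aspm, Spc25, Aurka and Cenpa lie below the lower dashed line on the right.

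By role, the cyclins, Cdk1 and the Cks subunits differed little inside the mitotic cells. Cdk1, the kinase that drives entry into mitosis, was at 185 CPM in lean and 173 CPM in obese (−0.09, −0.20 to 0.01). Its partners Ccnb1 and Ccnb2, the B-type cyclins, were at 69.0 and 69.6 CPM (0.01, −0.15 to 0.18) and at 156 and 147 CPM (−0.08, −0.19 to 0.03). Ccna2, the A-type cyclin of S phase and G2, was at 127 and 130 CPM (0.03, −0.09 to 0.15). The paralogs Cks1b and Cks2 were at 287 and 272 CPM (−0.08, −0.16 to 0.00) and at 303 and 304 CPM (0.01, −0.07 to 0.09). Cdca3, which takes part in mitotic entry, was at 121 and 124 CPM (0.03, −0.09 to 0.16).

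Among the genes of chromosome structure outside the class rule, Smc2 was at 246 CPM in lean and 271 CPM in obese (0.14, 0.06 to 0.23) and Smc4, with which it forms the core of condensin, at 347 and 386 CPM (0.15, 0.08 to 0.23). Ncapd2, a regulatory condensin subunit, was at 61.7 and 62.3 CPM (0.02, −0.16 to 0.19). The intervals of Smc2 and Smc4 excluded 0.

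In the chromosomal passenger complex, Incenp had the highest ratio of all 44, at 97.0 CPM in lean and 114 CPM in obese (0.23, 0.10 to 0.37), and Cdca8 was at 209 and 225 CPM (0.10, 0.01 to 0.20). The kinase of the complex, Aurkb, was at 81.9 and 87.3 CPM (0.09, −0.06 to 0.24). The subunit Birc5 is a class gene and its values are given above. The related kinase Aurka, which acts at spindle poles, was at 34.1 and 27.6 CPM (−0.30, −0.55 to −0.05) on 278 and 267 UMIs. With cells of 50000 UMIs or more added, the ratio of Aurka was 0.06, and with cells thinned to 2000 UMIs it was 0.05. Plk1 was at 50.5 and 50.4 CPM, with an interval of −0.20 to 0.19.

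Among centromere and kinetochore genes, Cenpa was at 379 CPM in lean and 312 CPM in obese mitotic cells (−0.28, −0.35 to −0.21). Spc25 was at 95.4 and 74.9 CPM (−0.35, −0.50 to −0.20), while Ndc80, which sits in the same microtubule-binding complex, was at 61.3 and 64.6 CPM (0.08, −0.10 to 0.25). The motor Cenpe was at 105 and 111 CPM (0.08, −0.05 to 0.21) and the large kinetochore protein Cenpf at 165 and 163 CPM (−0.01, −0.12 to 0.09). Of these 5 genes, Cenpa and Spc25 alone had intervals that excluded 0.

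The spindle genes held the lowest ratio of the set. Aspm was at 60.3 CPM in lean and 44.8 CPM in obese mitotic cells (−0.43, −0.62 to −0.24), on 492 and 433 UMIs. Stmn1, the most counted of the 44 with 9313 and 11589 UMIs, was at 1142 and 1200 CPM (0.07, 0.03 to 0.11), and Tpx2 at 137 and 149 CPM (0.12, 0.01 to 0.24). The other spindle proteins had intervals that included 0. Nusap1 was at 245 and 232 CPM (−0.08), Prc1, which bundles the central spindle, at 153 and 152 CPM, Hmmr at 104 and 104 CPM, Tacc3 at 106 and 103 CPM (−0.04) and Ckap2l at 46.0 and 41.5 CPM (−0.15).

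The 6 kinesins, motors that move along microtubules, lay close to equal, from −0.09 for Kif22 (44.3 and 41.7 CPM) to 0.08 for Kif4 (50.3 and 53.3 CPM). Kif11, which pushes spindle poles apart, was at 117 and 122 CPM (0.06, −0.06 to 0.19). Kif23 was at 62.4 and 65.2 CPM, Kif20b at 52.1 and 54.3 CPM and Kif20a at 31.6 and 32.6 CPM. All 6 intervals included 0.

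Of the spindle checkpoint kinases, Bub1 was at 38.6 and 39.9 CPM (0.05, −0.17 to 0.26) and Bub1b at 45.3 and 49.2 CPM (0.12, −0.08 to 0.32). On the side of the anaphase-promoting complex, its activator Cdc20 was at 65.9 and 60.9 CPM (−0.11, −0.28 to 0.06) and its ubiquitin-conjugating enzyme Ube2c at 341 and 322 CPM (−0.09, −0.16 to −0.01). In cytokinesis, Racgap1 was at 98.0 and 115 CPM (0.22, 0.09 to 0.36), Anln at 10.7 and 11.8 CPM (0.15, −0.27 to 0.57) and the exchange factor Ect2 at 24.5 and 24.6 CPM (0.01, −0.27 to 0.29).

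A list of 6 late mitotic members (Ccnb1, Cdc20, Plk1, Cenpa, Cenpe and Hmmr) summed to 773 CPM in lean and 707 CPM in obese mitotic cells, a log2 ratio of −0.13 (−0.18 to −0.08). Cenpa had the lowest ratio of the list, and without it the other 5, each between −0.11 and 0.08, summed to 394 and 396 CPM (0.01, −0.06 to 0.07). The other 35 members without the class genes summed to 5382 and 5481 CPM (0.03, 0.01 to 0.04). The 15 S-phase genes, none of them a member, summed to 2657 and 2932 CPM (0.14, 0.12 to 0.17), with 14 of 15 higher in the obese library (55.2% of all genes tested) and 6 at least 1.2-fold higher (15.6%). Of these, Ung, a uracil glycosylase, was at 15.9 and 29.0 CPM (0.86, 0.56 to 1.17), Gins2 of the replicative helicase at 44.1 and 59 CPM (0.42) and Uhrf1, which helps copy DNA methylation, at 71.1 and 91.2 CPM (0.36). The lowest were Tyms (−0.07), Rrm2 (0.00) and Cdc6 (0.03). Whether the 2 lists differ between diets was not tested.

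A list of other mitosis genes outside the 44 was read for comparison, of which 63 had at least 100 UMIs in the mitotic cells. Of them 32 were higher in the obese library (55.2% of all genes tested) and 31 lower, with a median log2 ratio of 0.01. By 1.2-fold, 4 were higher (15.6% of all genes tested) and 4 lower (10.6%). The lowest were the phosphatase Cdc25c (14.2 and 9.42 CPM, −0.59, −1.01 to −0.19), the securin Pttg1 (96.6 and 74.4 CPM, −0.38, −0.52 to −0.23) and Cenpt (−0.28, −0.73 to 0.17). The highest were the phosphatase Cdc25a (16.6 and 21.9 CPM, 0.40, 0.08 to 0.72), Anapc1 of the anaphase-promoting complex (0.39) and the kinetochore protein Zwint (0.32). Among 12 measured transcription factors of mitotic genes, Lin54, the subunit of the DREAM complex that binds the CHR, was at 11.2 and 16.1 CPM (0.52, 0.14 to 0.91), E2f7 followed at 0.18 and Rbbp4 at 0.08. Lin37 was at 25.1 and 19.4 CPM (−0.38, −0.67 to −0.08), Nfya, a subunit of the factor that binds CCAAT, at −0.33 (−0.75 to 0.08) and Lin9 at −0.18.

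Across single mitotic cells thinned to 5000 UMIs, the members were not interchangeable. Of 299 lean and 351 obese cells, the correlation of a gene with the sum of the other late mitotic genes was highest for Ube2c (Pearson r = 0.53 in lean and 0.61 in obese) and Cenpf (0.50 and 0.55), and Hmmr was at 0.48 and 0.41 and Cenpa at 0.46 and 0.46. Among the low values were those of Spc25 (0.03 and 0.08), Ndc80 (0.05 and 0.12), Anln (0.09 and 0.01) and Stmn1 (0.11 and 0.09). With the S-phase list, Cenpa was at −0.41 and −0.51 and Cdc20 at −0.45 and −0.42, whereas Stmn1 was at 0.24 and 0.18. The class gene Top2a, whose own counts helped to admit these cells, was at 0.25 and 0.16. The late list as a whole was at −0.46 and −0.51 with the S-phase list. The points are cells of 1 library each, drawn to the same depth, and low counts pull every r toward 0. The cells were also chosen by the sum of the class genes, which can shape r, so these values are a description.

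**Figure D3:**
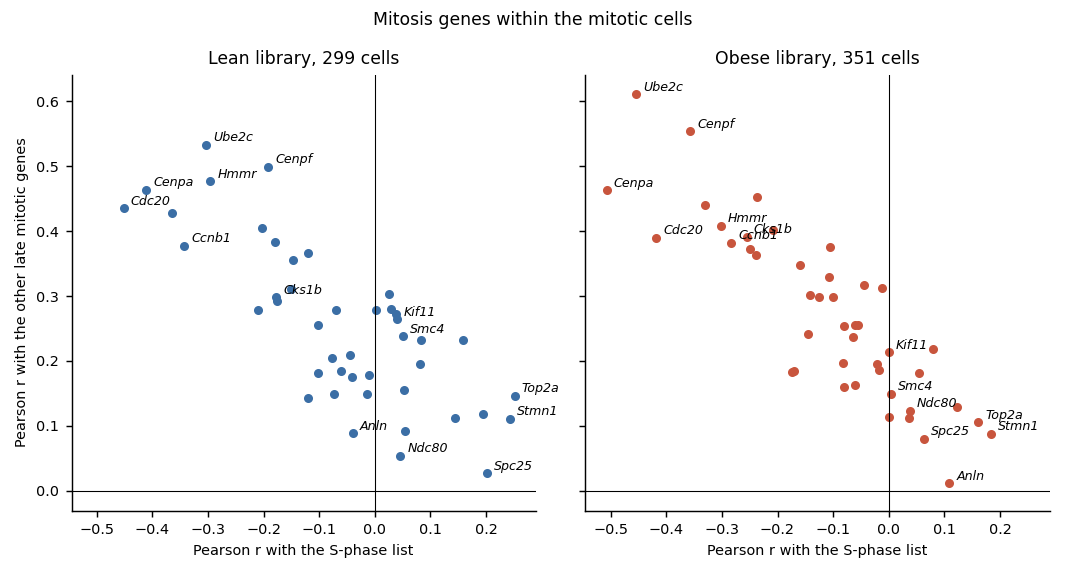
Pearson r across mitotic cells between each gene and the sum of the S-phase list (horizontal axis) and between the gene and the sum of the other late mitotic genes (vertical axis), in 299 lean cells (left) and 351 obese cells (right) thinned to 5000 UMIs. Each point is 1 of the 44 genes, and in both libraries the genes with the highest r to late genes, such as Ube2c and Cenpa, have negative r with the S-phase list.

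In the remaining cells the levels were low and the obese library was the higher of the pair. There 35 of the 44 genes had at least 100 UMIs. Of the 32 outside the class rule, 26 were higher in the obese library (57.1% of the 9564 genes tested) and 6 lower. By 1.2-fold, 21 of them were higher (18.5% of the genes tested) and 3 lower (8.91%). The 9 genes under the limit were Bub1, Bub1b, Plk1, Kif20a, Kif4, Anln, Hmmr, Ckap2l and Ect2. Without the class genes the median of 32 genes was 0.34 (0.10 to 0.57), against 0.04 over all genes tested. In S-phase-high cells it was 0.31 (−0.10 to 0.73, 23 genes), and in S-phase-low cells, which were most of them, 0.18 (−0.17 to 0.54, 18 genes). Both splits had 0.03 over all genes tested, and they measured different members. The highest were Spc25 (2.63 CPM in lean and 4.56 CPM in obese, 0.79, 0.27 to 1.33), Tpx2 (3.90 and 6.63 CPM, 0.77, 0.34 to 1.2), Kif23 (5.74 and 9.67 CPM, 0.75, 0.40 to 1.11), Ncapd2 (5.79 and 9.67 CPM, 0.74, 0.39 to 1.10) and Cdc20 (3.26 and 5.05 CPM, 0.63, 0.15 to 1.12). The lowest were Cenpf (3.90 and 2.88 CPM, −0.44, −0.97 to 0.09), Ccnb1 (6.21 and 5.11 CPM, −0.28), Kif20b (9.11 and 7.5 CPM, −0.28), Kif22 (−0.21) and Aurka (−0.15), all with intervals that included 0.

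Split by their UMIs of the 3 class genes, the remaining cells had a median over the measured members of 0.23 (−0.01 to 0.47, 13 genes) with 5 to 9 UMIs, 0.23 (0.08 to 0.38, 16 genes) with 1 to 4 UMIs and 0.09 (−0.24 to 0.43, 14 genes) with none. These bounds of the middle genes overlapped, the bins measured different genes, and the difference between bins was not tested. The bins held 72, 486 and 1382 lean cells and 91, 503 and 1207 obese cells, so the obese library had more of its cells in the upper bins. Other measures also differed between the libraries' remaining cells. The 5 dendritic markers summed to 24.1 CPM in lean and 83.7 CPM in obese, seen in 89 and 95 cells, the 4 red cell markers to 0 and 499 CPM, seen in 21 obese cells of which 3 had at least 3 UMIs, and the median mitochondrial share was 2.11% and 2.65%. Their part in the ratios was not tested. With cells limited to those with Cd8a or Cd8b1 and without Pmel, Lyz2, Cd79a or Cd4, the median was 0.34. That limit uses no dendritic or red cell marker and no stricter mitochondrial share, so it cannot decide their part. Of the genes seen most often in S-phase-low cells, remaining cells had 151 and 163 CPM of Smc4 (0.11, 0.04 to 0.19) and 73.0 and 91.9 CPM of Cks2 (0.33, 0.23 to 0.44). Stmn1, which was seen more often in S-phase-high than in S-phase-low cells, was at 123 and 155 CPM (0.33, 0.25 to 0.41).

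**Figure D4:**
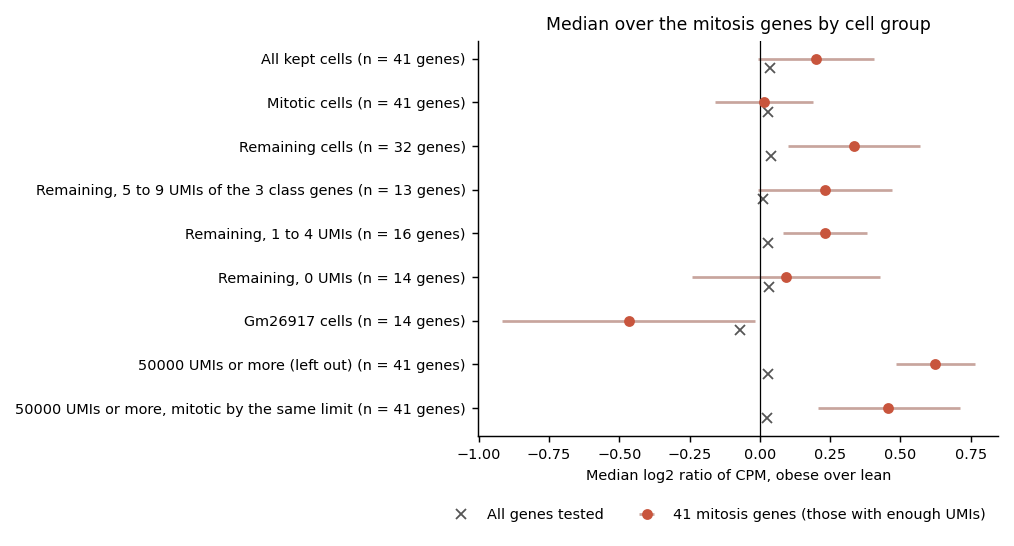
Median log2 ratio of CPM, obese over lean (horizontal axis), over those of the 41 genes outside the class rule that had at least 100 UMIs (circles with the 95% counting interval of the middle genes), and over all genes tested (crosses), by cell group. The median is 0.02 in mitotic cells, 0.34 in remaining cells, −0.46 in Gm26917 cells and 0.62 in the cells of 50000 UMIs or more that the depth limit left out. Those of them at the class limit are not matched in depth to the mitotic cells.

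The upper limit on depth left out cells with 24138 lean and 57660 obese UMIs of the 44 genes. Kept cells held 78487 and 91596. Of 83 lean cells with 50000 UMIs or more and few mitochondrial UMIs, 70 (84.3%, 74.7 to 91.4) met the limit of 10 UMIs of the class genes, and of 121 obese cells 117 (96.7%, 91.8 to 99.1) did. The 83 and 121 cells had median depths of 63662 and 71618 UMIs. A fixed limit of 10 UMIs asks for a lower share of the class genes in deep cells, so those that met it are not matched to the mitotic cells. Lean and obese cells that met it were not matched to each other either. The 70 and 117 cells had medians of 47 and 78 UMIs of the class genes, at median depths of 65480.5 and 71980 UMIs. In the 83 and 121 cells all 44 genes were higher in the obese library (54.5% of the 7881 genes tested) and 40 at least 1.2-fold (19.2%). The median of the 44 was 0.61 (0.47 to 0.76), while the median of all genes was 0.03. Among the cells at the class limit alone, the 41 genes outside the class rule were all higher (53.8% of 7718) and 32 at least 1.2-fold (17.4%). Their median was 0.46 (0.21 to 0.71). There Aurka was at 14.9 CPM in lean and 28.4 CPM in obese (0.93, 0.56 to 1.32), Ccnb1 at 42.7 and 75.1 CPM (0.82, 0.59 to 1.04), Prc1 at 72.2 and 126 CPM (0.80, 0.63 to 0.97) and Cdc20 at 33.2 and 55.5 CPM (0.74, 0.48 to 1.0). Aspm (44.3 and 45.6 CPM, 0.04, −0.20 to 0.28), Cenpa (259 and 277 CPM, 0.10, 0.00 to 0.20) and Spc25 (54.1 and 58.0 CPM, 0.10, −0.11 to 0.32) had the lowest ratios here too. Droplets with 2 cells were not told apart from deep single cells, and their part in these values was not tested. With these cells added to the kept cells, the median over all cells was 0.40 in place of 0.21, and that in mitotic cells 0.14 in place of 0.02.

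The Gm26917 cells were shallow, with medians of 2332 UMIs in lean and 2999 UMIs in obese, and held 8.84% of lean and 5.90% of obese cells. Gm26917 is a noncoding RNA, and its share of UMIs had a median of 1.11% and 1.46% in these cells, against 0.0113% and 0.0129% in remaining cells. Of the 44 genes 16 had at least 100 UMIs there, 1 higher and 15 lower in the obese library, with 12 at least 1.2-fold lower (31.2% of the 2135 genes tested) and 0 that much higher (25.2%). The median over the 16 was −0.41 (−0.86 to 0.03), against −0.07 over all genes tested. With the mean over cells in place of summed UMIs it was 0.04, and with all deposited cells 0.03, so its sign rested on how cells were weighted and kept. A few cells held most of these counts, since the 27 lean and 21 obese cells with at least 10 UMIs of the class genes had 2309 of 2963 and 1693 of 2268 UMIs of the 44 genes, and without them the median was −0.14 (−0.71 to 0.43) over the 4 genes with at least 100 UMIs. The 5 dendritic markers summed to 17.9 CPM in lean, seen in 10 cells, and 483 CPM in obese, seen in 4 cells of which 1 had at least 3 UMIs, and the median mitochondrial share was 3.5% and 4.59%. Their part in the ratios was not tested. The lowest were Kif20b (112 and 68.6 CPM, −0.70, −1.27 to −0.15), Smc2 (138 and 88.8 CPM, −0.64, −1.14 to −0.15), Stmn1 (204 and 132 CPM, −0.62, −1.03 to −0.22), Cenpa (126 and 88.8 CPM, −0.51, −1.02 to −0.01) and Prc1 (93.7 and 67.0 CPM, −0.48, −1.08 to 0.10). The highest were Cenpe (129 and 136 CPM, 0.07), Smc4 (345 and 315 CPM, −0.13), Kif11 (107 and 95 CPM, −0.17), Mki67 (556 and 471 CPM, −0.24) and Incenp (271 and 224 CPM, −0.27).

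The 27 lean and 21 obese Gm26917 cells with at least 10 UMIs of the class genes were also read on their own. Their medians were 4902 and 6118 UMIs, and thinned to 2000 UMIs they showed a median of 15 of the 44 genes in each library, against 10 in mitotic cells. The 44 include the class genes, so the limit sets part of this count. In lean, thinned Mki67 was seen in 88.9% of these cells against 41.5% of mitotic cells, and Top2a in 96.3% against 63.5%. A fixed limit of 10 UMIs asks for a higher share of the class genes in shallow cells, so these cells are not matched to the mitotic cells. Both libraries together, the 41 genes without the class genes summed to 8275 CPM in these cells and 6173 CPM in mitotic cells, with 29 of the 41 higher and 12 lower. The share over all genes was not computed for this contrast, so whether the count is particular to these genes was not tested. The values of the class genes in these cells are set in part by the limit and support nothing here.

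The 5 genes with the lowest ratios in the Gm26917 cells at the class limit had short transcripts. Cks1b was at 26.3 CPM on 9 UMIs against 279 CPM in mitotic cells, a log2 ratio of −3.41 (−4.54 to −2.48). Stmn1 was at 485 against 1173 CPM (−1.28, −1.50 to −1.06), Ccnb2 at 64.2 against 151 CPM (−1.23, −1.91 to −0.63), Cks2 at 137 against 304 CPM (−1.15, −1.59 to −0.73) and Cdca3 at 58.4 against 123 CPM (−1.07, −1.79 to −0.44). The longest annotated transcripts of these 5 genes run from 692 bases (Cks2) to 1976 bases (Cdca3). Among the high ratios were Anln at 73.0 against 11.3 CPM (2.69, 2.03 to 3.30), Incenp at 648 against 106 CPM (2.61, 2.40 to 2.81), Aspm at 274 against 51.9 CPM (2.40), Kif20b at 231 against 53.3 CPM (2.11) and Cenpf at 642 against 164 CPM (1.97). Their transcripts run from 3236 bases (Incenp) to 11130 bases (Cenpf).

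Across the 41 genes outside the class rule the log2 ratio had a Pearson r of 0.75 and a Spearman rho of 0.68 with the log2 length of the transcript. In the lean library alone these were 0.76 and 0.73, and in the obese 0.70 and 0.62. The 20 genes with the shorter transcripts (692 to 3052 bases) had a median of 0.03 and 10 of them were above 0, while the 21 longer ones (3137 to 11130 bases) had a median of 1.19 and 19 above 0. The points are genes read in the same 48 cells, so no p is given. Genes outside the 44 were not read in this way, so whether the relation is particular to mitosis genes was not tested. The ratio of obese over lean in mitotic cells, over all 44, had an r of 0.20 and a rho of 0.35 with the same lengths. Length and ratio did not always go together, since Cdk1, at 4375 bases, was at −0.29 and Nusap1, at 3526 bases, at −0.12, while Spc25, at 1527 bases, was at 166 against 84.3 CPM (0.98).

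**Figure D5:**
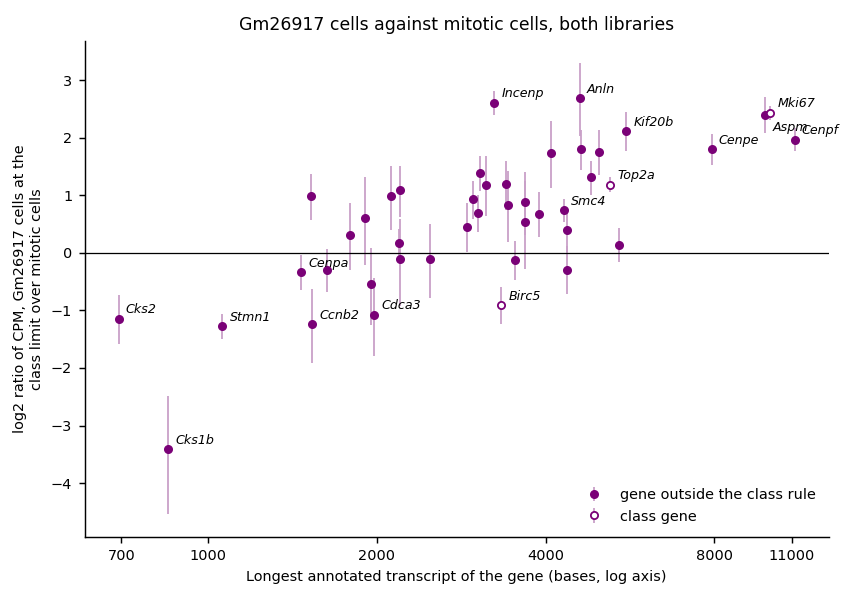
Log2 ratio of CPM in Gm26917 cells at the class limit over mitotic cells, both libraries summed (vertical axis, with 95% counting intervals), against the length of the longest annotated transcript in bases (horizontal log axis), for the 41 genes outside the class rule (filled) and the 3 class genes, whose values the rule sets in part (open). Cks1b lies lowest at −3.41, while Aspm and Cenpf, with long transcripts, lie at 2.40 and 1.97.

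Some of the genes overlap a neighbour or have a copy, and the part of these in the counts was not tested. By the GENCODE annotation of GRCm38, 11 of the 44 genes have an exon that overlaps an exon of a gene on the opposite strand, among them Kif20a with Cdc23 and Kif4 with Pdzd11, and Ncapd2 shares bases with Gm28967 on the same strand, which had 7 lean and 5 obese UMIs. Cks1b has a copy, Cks1brt, which had 7 and 21 UMIs against 2936 and 3235 of Cks1b. Among the mitotic cells, any of 5 myeloid markers was seen in 49 lean (16.4%) and 62 obese cells (17.6%), against 8.71% and 9.44% of remaining cells. At least 3 UMIs of them were in 4 and 3 mitotic cells, with Adgre1 at 0. Any of 5 dendritic markers was seen in 40 (13.4%) and 40 (11.3%) mitotic cells, against 4.59% and 5.27% of remaining cells. At least 3 UMIs of these were in 13 and 11 mitotic cells. Mitotic cells were deeper, and depth was not matched for these shares. The part of such cells in the ratios was not tested. With kept cells limited to those with Cd8a or Cd8b1 and without Pmel, Lyz2, Cd79a or Cd4, the median was 0.19 over all cells and −0.01 in mitotic cells. That limit uses Lyz2 alone of the myeloid markers and no dendritic marker, so it cannot decide their part.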

How the data were processed

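Single-cell RNA of CD8+ TIL was measured in 1 lean and 1 obese library. The authors made UMI counts per gene and cell with Cell Ranger 6.0.2 on mm10, per the labels, and deposited these counts without normalization. The 44 genes, their roles and the other lists were chosen with earlier results of these data known. All 44 may be named, with full values for the 5 highest and the 5 lowest ratios in each cell group, the class genes and the pairs of paralogs, and of other lists the 3 highest and the 3 lowest genes are named. Genes named for the cells of 50000 UMIs or more and for the Gm26917 cells at the class limit were chosen after their values were seen.

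UMIs were summed per library and cell group with Python 3.11.15 (numpy 2.4.6, scipy 1.17.1, pandas 2.3.3) and scaled by the group's UMI total (CPM). CPM carry exact Poisson intervals, log2 ratios exact conditional binomial intervals and shares Clopper-Pearson intervals. Genes with at least 100 UMIs in both libraries together entered medians and counts, and 1.2-fold was the size named. The median cell held 7958 UMIs in the lean and 9103 UMIs in the obese library. PCR duplicates are removed by UMIs, but intervals cover counting error only. The steps were tested on simulated counts.

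Alternatives were TMM scaling (edgeR 4.0.16 in R 4.3.3), totals that leave out mitochondrial and ribosomal genes, averages of single cells, thinning, other filters on cells and genes, and other class limits. Positions and transcript lengths are from the GENCODE annotation of GRCm38. A cell group planned as a measure of free RNA is not reported here.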

Additional observations from a re-analysis of the deposited data

Results flagged for a closer look

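Stmn1 leaned to the obese library in remaining cells (log2 ratio 0.33) and to the lean library in Gm26917 cells (−0.62). Smc2 did the same, with 0.30 in remaining cells and −0.64 in Gm26917 cells. These 2 cell groups are unlike, since only the Gm26917 cells include cells with at least 10 UMIs of the class genes (27 lean and 21 obese). Those 27 and 21 cells had 112 and 54 UMIs of Stmn1 and 65 and 33 UMIs of Smc2. Whether the opposite directions hold without them was not tested. Spc25 was at −0.35 in mitotic cells and at 0.79 in remaining cells. In each case the counting intervals of both cell groups lay on opposite sides of 0, with 1 library per diet, and the difference between cell groups was not tested.

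No comparison of kept cells used the cells of 50000 UMIs or more. Of these, 84.3% of the lean and 96.7% of the obese had at least 10 UMIs of Top2a, Mki67 and Birc5. A fixed limit is easier to reach in deep cells, so these shares are not matched to those of kept cells.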

How the results depend on the processing

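With all deposited cells the median log2 ratio over all cells was 0.42 in place of 0.21, and with cells of 50000 UMIs or more added 0.40. The other 8 alternatives kept it between 0.13 and 0.25. In remaining cells it was 0.093 with only cells at 0 UMIs of the class genes, and 0.16 to 0.56 otherwise. In mitotic cells all 15 alternatives gave −0.03 to 0.14, and the share of mitotic cells stayed higher in the obese library in all 10, by 1.62 to 4.97 percentage points. In Gm26917 cells the median turned to 0.044 as a mean over cells and to 0.026 with all deposited cells, and was −0.14 with only cells below the class limit. In mitotic cells Aurka turned to 0.050 with cells thinned to 2000 UMIs, to 0.062 with all deposited cells and to 0.064 with cells of 50000 UMIs or more added. The cause was not tested. Of 572 values of single genes in mitotic cells 500 stayed within their counting interval, 69 moved further and 3 changed sign. Over all kept cells 253 of 396 stayed and 143 moved. A change of sign was counted only for genes with a reported ratio of at least 1.2-fold. Smaller ratios that turned are among those that stayed or moved. The cells of 50000 UMIs or more, those at 0 UMIs of the class genes and those below the class limit were chosen as alternatives after seeing the data. No replicate could be left out, and no paired analysis was possible because each diet is 1 library. In the Gm26917 cells 28 of the 44 genes had under 100 UMIs.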
